A study of Brassica napus with 6 samples.

Results

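The genes described here are the 4 rapeseed (Brassica napus) genes that the deposited table describes as cytochrome P450 78A9 or 78A6, out of 3248 genes in that table. They were taken by gene identifier, and no other gene in the table is described as a CYP78A enzyme. BnaA09g55530D, BnaA04g00510D and BnaC08g31760D are described as CYP78A9 and carry the Arabidopsis locus AT3G61880, so they are called the A09_random, A04 and C08 copies. BnaA10g00660D is described as CYP78A6.

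RNA was sequenced from the silique wall, which encloses the seeds in the pod, at 15 days after flowering. One pool mixed equal amounts of tissue from 12 accessions of an association population with long siliques, and the other did so for 11 accessions with short siliques. Both were sequenced as 3 libraries. No mutant, transgene or treatment is named in the labels. A pool gives an average over its accessions, so the values of single accessions were not analysed here. The labels do not state whether the 3 libraries of a pool were made from different plants. The p-values given here therefore reflect the spread between libraries alone, and this spread may be technical. In a bulk sample, fewer cells of a type and less RNA per cell cannot be told apart.

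CYP78A enzymes are a plant-specific family of cytochrome P450 monooxygenases. In Arabidopsis, CYP78A5 (KLUH) keeps cells of growing organs dividing and acts beyond the cells that make it, CYP78A6 and CYP78A9 enlarge seeds through the maternal tissue around them, and raised CYP78A9 activity gives larger fruits. In rapeseed, a CYP78A9 copy of chromosome A09 has been reported by others as a gene for silique length and seed weight. The comparison of the pools asked, for the genes in the table, how their RNA in the wall differs between long and short siliques. The gene with the most RNA among the 4 was much higher in the long pool, while the other 3 had few reads and were lower there.

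Library totals recovered from the deposited counts and FPKM (the authors' level per length of gene and library size) lay between 22892442 and 30259269 reads. Levels per library are given as CPM (counts scaled to these totals), on which a floor of 3 counts corresponds to between 0.0991 and 0.131 CPM. Every gene in the table had been called different by the authors (100% of 3248), 34.4% of them as higher and 65.6% as lower in the long pool. Of the 4 CYP78A genes they called 1 as higher and 3 as lower. A test on these genes is therefore a second test on the libraries that chose them. In the fit over the table, 2574 genes were tested and 66.6% were called (edgeR quasi-likelihood test), 23.1% as higher and 43.5% as lower in the long pool. The median log2 fold change, long over short (log2FC), of the tested genes was -1.22. Of the marker lists, 0 of 13 seed loci, 1 of 6 pollen and stamen loci, 1 of 11 green tissue loci and 2 of 9 fruit patterning loci were in the table. Over all genes, counted as genes rather than loci, 3248 were listed of the 65264 implied by the authors' FDR and p-values. The stamen and petal gene PI (BnaA10g15180D) had 7 counts over the long libraries against 29 over the short ones, and CAB2 (BnaC07g09400D), a light-harvesting protein of green tissue, had a log2FC of 1.07 ± 0.18 (SE). Of the fruit patterning genes, both of the YABBY family, YAB5 (BnaA03g22670D) rose, at a log2FC of 1.37 ± 0.29 (SE; adjusted p = 0.0125 by edgeR), and FIL (BnaC03g25170D) was at -1.19 ± 0.40 (SE) and not called (adjusted p = 0.236 by edgeR). The part of these markers in the results was not tested, and the labelled tissue could not be checked further on a table of called genes.

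The A09_random copy was 22.7-fold higher in the long pool. In the long libraries 1, 2 and 3 it had 2759, 3111 and 2629 counts, or 107, 103 and 115 CPM. In the short libraries 1, 2 and 3 it had 89, 160 and 144 counts, or 3.49, 5.47 and 5.31 CPM. The lowest long library thus stood far above the highest short library, and short replicate 1 was the lowest of all. The log2FC of BnaA09g55530D was 4.50 ± 0.20 (SE, n = 3 libraries per pool), at a Benjamini-Hochberg adjusted p of 2.58e-09 by edgeR. From the counts alone, the ratio of long to short was 22.4 (95% exact counting interval 20.3 to 24.9), an interval that covers counting error only. In the authors' deposited table it had the smallest p of all listed genes (rank 1) and a log2FC of 4.44. In the edgeR fit, 1 gene had a smaller p. Among the 925 tested genes that were higher in the long pool, 37 had a larger fitted log2 fold change.

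The A04 copy, BnaA04g00510D, had 7, 11 and 2 counts in the long libraries 1, 2 and 3 and 23, 22 and 21 counts in the short libraries. On the CPM scale these were 0.272, 0.364 and 0.0874 against 0.903, 0.752 and 0.775. The groups did not overlap, and long replicate 3 lay under the floor of 3 counts. The ratio of short to long from the counts was 3.18 (95% exact counting interval 1.90 to 5.54). The log2 fold change, long over short, was -1.68 ± 0.47 (SE), which did not pass the test (edgeR, adjusted p = 0.0883).

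The C08 copy, BnaC08g31760D, had 4, 5 and 6 counts in the long libraries and 11, 26 and 19 in the short libraries, in the order of the replicate numbers. These were 0.155, 0.165 and 0.262 CPM in the long pool and 0.432, 0.889 and 0.701 CPM in the short pool. The groups again did not overlap, with short replicate 1 nearest to the long libraries. The ratio of short to long from the counts was 3.60 (95% exact counting interval 2.01 to 6.85). The log2 fold change was -1.80 ± 0.47 (SE), with an adjusted p of 0.0543 (edgeR) that missed the threshold of 0.05.

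BnaA10g00660D had 4, 9 and 10 counts in the long libraries and 26, 36 and 28 in the short libraries. These were 0.155, 0.297 and 0.437 CPM in the long pool and 1.02, 1.23 and 1.03 CPM in the short pool, again without overlap. The ratio of short to long from the counts was 3.77 (95% exact counting interval 2.36 to 6.25). It fell in the long libraries, with a log2FC of -1.89 ± 0.44 (SE) and an edgeR adjusted p of 0.0256. With 1 library left out, that call held in 1 of 6 fits, the one without long replicate 3, with log2FC from -2.23 to -1.59 and adjusted p from 0.0319 to 0.164 over the 6 fits. Scaling by TMM (log2FC -1.11) or by DESeq2 size factors (-0.94), both computed on the listed genes, ended it too.

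Non-overlapping CPM was common in the table: 33.1% of its genes were higher in every long than in every short library, and 62.2% were lower in every long library. Of the 1649 tested genes with a negative fold change, 699 had a larger drop than the A04 copy, 602 than the C08 copy and 548 than BnaA10g00660D, and their median was -1.55. The 3 genes with few reads thus lay near the middle of the lower genes, and the A09_random copy near the upper end of the higher genes.

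**Figure D1:**
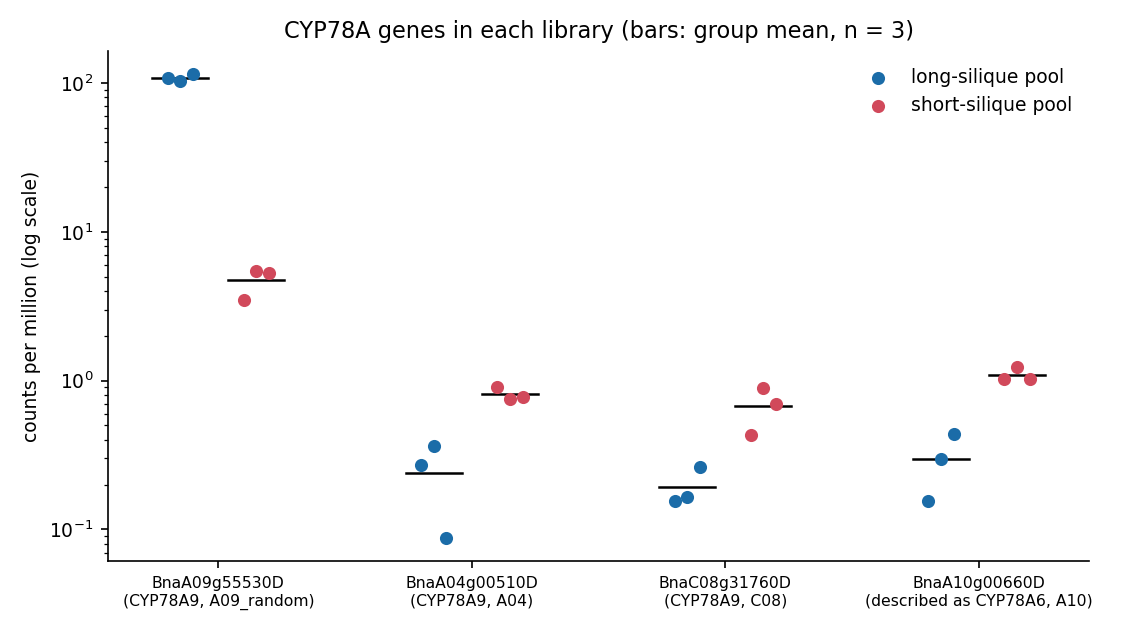
CPM (log axis) of the 4 CYP78A genes in each of the 3 long (blue) and 3 short (red) libraries, with the mean of each pool as a black bar. The A09_random copy stands between 103 and 115 CPM in the long pool and between 3.49 and 5.47 CPM in the short pool, and the other 3 genes are lower in every long library.

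To compare genes of different length, the deposited FPKM was used. The A09_random copy stood at 67.6 ± 3.79 FPKM (SD, n = 3) in the long pool and at 2.97 ± 0.686 FPKM in the short pool, the highest of the 4 in every library. By FPKM it ranked 9 to 13 among the 3248 listed genes in the long libraries and 817 to 1226 in the short libraries. The listed genes held only 0.897% to 1.19% of the recovered library totals, so these are not ranks among all genes. Of the 4 genes, BnaA10g00660D followed in the short pool, at 0.600 ± 0.0608 FPKM, against 0.163 ± 0.0751 FPKM in the long pool. The A04 copy was at 0.127 ± 0.0709 FPKM in the long pool and 0.430 ± 0.0436 FPKM in the short pool. The C08 copy was at 0.120 ± 0.0346 FPKM in the long pool and 0.423 ± 0.146 FPKM in the short pool. The order of these 3 genes in the long pool lies within their spread. In the short pool the A04 and C08 copies do too, while the lowest value of BnaA10g00660D, 0.560 FPKM, equals the highest of the C08 copy, 0.560 FPKM, and lies above the highest of the A04 copy, 0.480 FPKM.

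Summed over the 4 genes, the level was 68.0 ± 3.81 FPKM (SD, n = 3) in the long pool and 4.42 ± 0.822 FPKM in the short pool, 15.4-fold higher in the long pool (two-sided exact permutation test, p = 0.1, the smallest that 3 against 3 libraries allow). The A09_random copy made up 99.5%, 99.3% and 99.4% of this sum in the long libraries 1, 2 and 3. It made up 62.5%, 67.7% and 70.0% in the short libraries. The sum of the other 3 genes was 0.410 ± 0.0693 FPKM in the long pool and 1.45 ± 0.163 FPKM in the short pool, 3.54-fold higher in the short pool (two-sided exact permutation test, p = 0.1). The authors had listed the A09_random copy as higher and the other 3 genes as lower in these same libraries. Both test results thus followed from the choice of genes and give no independent support. The sum covers the 4 listed genes only. CYP78A genes that the authors did not call were not analysed here, which includes every gene with the Arabidopsis locus of CYP78A5, CYP78A6, CYP78A7 or CYP78A10.

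**Figure D2:**
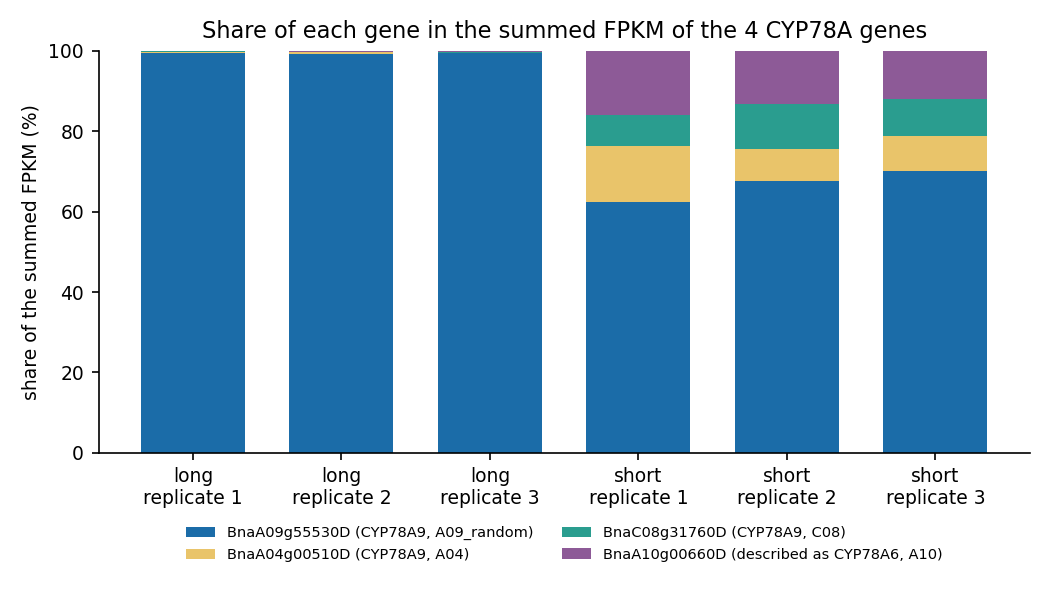
Share of each gene, in percent, in the summed FPKM of the 4 CYP78A genes in each library. The A09_random copy holds 99.3% to 99.5% of the sum in the long libraries and 62.5% to 70.0% in the short libraries, where the other 3 genes fill the rest.

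The difference between the A09_random copy and the others was measured on the ratio of counts within a library, which no scaling of libraries affects. The log2 ratio of the A09_random to the A04 copy (0.5 counts added to each) was 8.88 ± 1.03 (SD, n = 3) in the long libraries and 2.50 ± 0.50 in the short ones, a difference of 6.38. Against the C08 copy the log2 ratio was 9.02 ± 0.318 in the long libraries and 2.82 ± 0.192 in the short ones, a difference of 6.21. Against BnaA10g00660D it was 8.53 ± 0.663 in the long libraries and 2.08 ± 0.297 in the short ones, a difference of 6.45. For all 3 ratios each long library stood above each short library. The two-sided exact permutation test gave p = 0.1 for each (adjusted p = 0.1 over the 3 comparisons), the smallest it can give. The A09_random copy had been listed as higher and the others as lower in these same libraries. Separate ratios thus followed from the choice of genes, and the test gives no independent support. Among the 3 genes with few reads, the same differences were between -0.17 and 0.24 on the log2 scale, with exact permutation p from 0.6 to 1. These p-values do not show that the 3 genes responded alike.

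**Figure D3:**
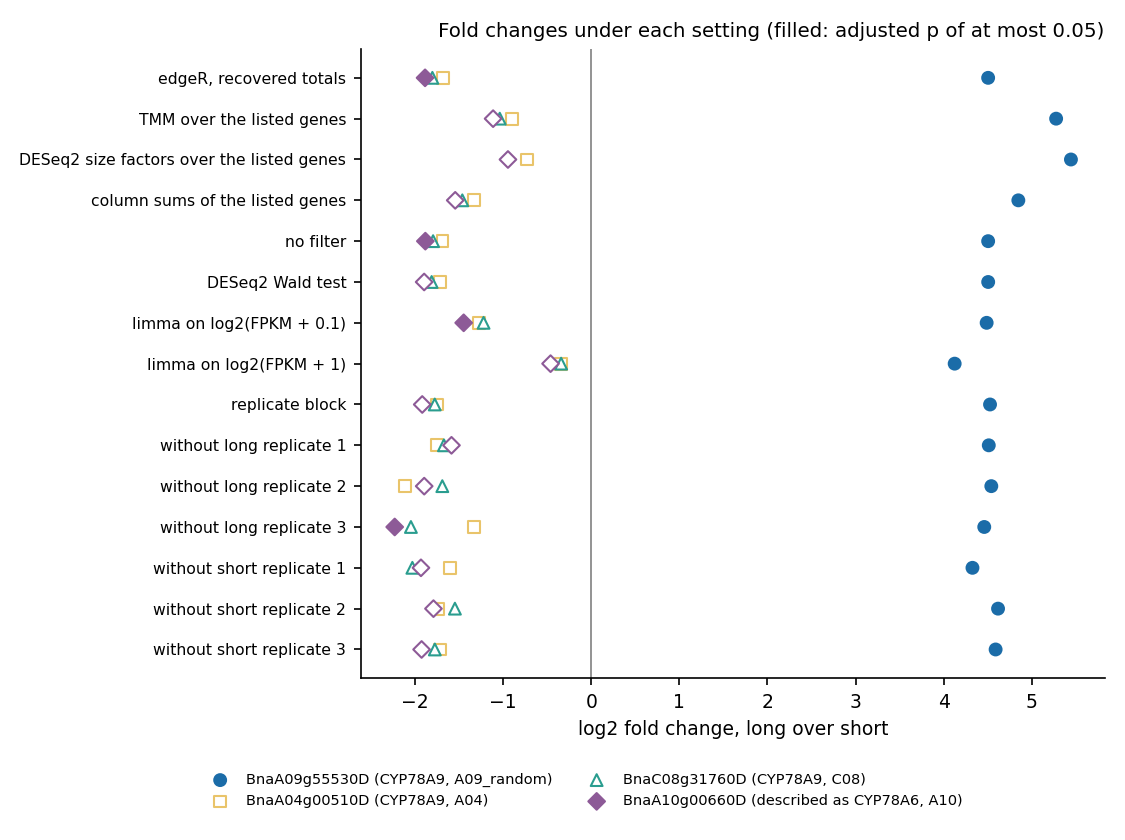
Log2 fold changes, long over short, of the 4 genes under the edgeR fit with recovered totals (top) and under each alternative scaling, filter, test and left-out library. Filled symbols have an adjusted p of at most 0.05. The A09_random copy lies between 4.12 and 5.44 in every row, and the other 3 genes lie below 0 in every row in which they were fitted.

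The positions are given as in the deposited table, on the Darmor reference genome, whose release is not given in the sources used here. The A09_random copy lies at 3280990 to 3282883 of A09_random, which holds sequence assigned to chromosome A09 without a place on it. The A04 copy lies at 386326 to 388352 of A04, the C08 copy at 30989298 to 30991058 of C08 and BnaA10g00660D at 322937 to 324835 of A10. The gene models span 1894, 2027, 1761 and 1899 bases, in this order. The length by which the authors divided the counts follows from counts, FPKM and library totals. It was 1602 bases for the A09_random copy, 1588 to 1602 for the C08 copy, 1876 to 1901 for the A04 copy and 1823 to 1828 for BnaA10g00660D. The A09_random copy thus has the most sequence outside the counted length, 292 bases, against 71 to 76 bases in BnaA10g00660D. Reads that map to more than 1 copy were not counted, since the series design text says that uniquely mapped reads were used. How many reads this removed from each copy was not tested.

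The neighbours in the table bear on which Arabidopsis gene each copy corresponds to. Within 500 kb of the A09_random copy, 7 of the 10 listed genes with an Arabidopsis locus have one on Arabidopsis chromosome 3 near AT3G61880 (within 3500 locus numbers). The same held for 2 of 2 such genes around the A04 copy and 4 of 4 around the C08 copy. Around BnaA10g00660D, 5 of 6 such genes had loci near AT1G01190, the locus that the table gives for it. In Arabidopsis, AT1G01190 is CYP78A8, whereas CYP78A6 is AT2G46660. The description as CYP78A6 and the locus therefore name different members of the family, and the neighbouring genes go with the locus. The CYP78A8 gene has been studied less than CYP78A5, CYP78A6 and CYP78A9.

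Near the A09_random copy, large differences ran in both directions. Its nearest listed neighbour before it, at a gap of 14520 bases, was BnaA09g55520D, described as the homeobox-leucine zipper protein ATHB-12, a transcription factor of drought and abscisic acid responses. This gene had 22, 23 and 4 counts in the long libraries 1, 2 and 3 and 380, 460 and 344 in the short libraries. The groups were far apart, with long replicate 3 the lowest. Its log2 fold change was -4.55 ± 0.35 (SE; edgeR, adjusted p = 2.95e-06), so that it was 23.5-fold lower in the long pool next to a gene 22.7-fold higher. The nearest listed neighbour after the copy, at 42032 bases, was BnaA09g55590D, the gibberellin receptor gene GID1B, with a log2FC of -2.64 ± 0.34 (SE) and an edgeR adjusted p of 0.00019. Of the 12 listed genes within 500 kb of the A09_random copy, 2 were higher and 10 lower in the authors' deposited table. Of the 11 that could be tested, 2 were called as higher and 7 as lower, against 23.1% and 43.5% of all tested genes. Genes between them that the authors did not call were not analysed here, and an unordered scaffold need not give the distances on the chromosome.

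Around the other 3 genes, listed neighbours went one way. All 3 listed genes within 500 kb of the A04 copy, all 6 within 500 kb of the C08 copy and all 6 within 500 kb of BnaA10g00660D were lower in the authors' deposited table, against 65.6% of all listed genes. The windows of the A04 copy and BnaA10g00660D reach the start of the chromosome. Of these genes 3, 4 and 5 could be tested, and 0, 3 and 4 of them were called as lower, against 43.5% of all tested genes. The nearest neighbours of the A04 copy were BnaA04g00250D (glutaredoxin-C11), with a log2FC of -1.37 ± 0.42 (SE), and BnaA04g00950D (cytochrome P450 76C1), with -1.74 ± 0.51 (SE), neither called (edgeR, adjusted p = 0.146 and 0.105). Without long replicate 3 BnaA04g00950D passed, at a log2FC of -2.53 (edgeR, adjusted p = 0.0326), and BnaA04g00250D passed in limma on log2(FPKM + 0.1), at -1.23 (adjusted p = 0.0429). The nearest listed neighbour after the C08 copy, BnaC08g31950D (germin-like protein), had a log2FC of -1.17 ± 0.26 (SE) and an edgeR adjusted p of 0.0182. With 1 library left out, its call ended in 4 of 6 fits, those without long replicate 2 or 3 or short replicate 1 or 3. Over the 6 fits its log2FC ran from -1.32 to -1.04, and the call also ended under TMM scaling. The nearest listed neighbour before the C08 copy, BnaC08g31070D, has no description and had 0 counts over the long libraries against 35 over the short ones. The listed neighbour after BnaA10g00660D, BnaA10g00770D (WAT1-related protein), had a log2FC of -1.40 ± 0.41 (SE) and was not called (edgeR, adjusted p = 0.105).

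**Figure D4:**
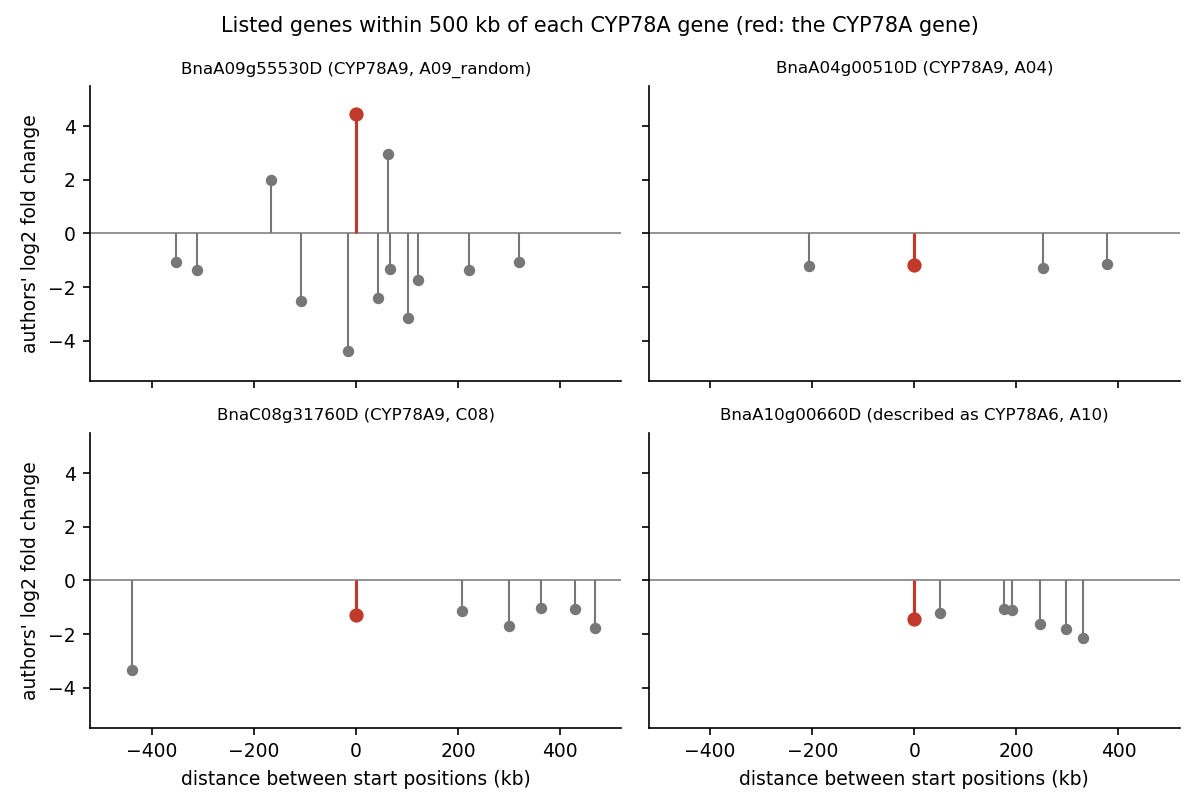
The authors' log2 fold changes, long over short, of the listed genes within 500 kb of each CYP78A gene, against the distance between start positions in kb; the CYP78A gene is in red. Around the A09_random copy 2 genes are higher and 10 lower, and around the other 3 genes every listed neighbour is lower.

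Other genes known to set seed and organ size were looked up by Arabidopsis locus. Of 43 such loci, 7 were in the table, with 8 genes. Over all genes, 3248 were listed of the 65264 implied by the authors' FDR and p-values. Loci and genes are different units, so these counts do not show whether size genes were listed more often. Of the 8 genes 4 were called, against 66.6% of all tested genes. In the long pool 2 were called as higher and 2 as lower, against 23.1% and 43.5% of all tested genes. The median log2 fold change of the 8 genes was 0.02, against -1.22 over all tested genes. This median is only a midpoint between 4 genes that were higher and 4 that were lower. No listed gene had an authors' log2 fold change smaller than 1 in size, so none lay near 0. The table holds no gene with the locus of DA1, BB, UBP15, ARF18, UPL3 or TTG2.

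The closest to the CYP78A enzymes in this list are B3 repressors. In Arabidopsis, SOD7 (NGAL2) binds the promoter of CYP78A5 and represses it, and NGAL1 is a related protein. The SOD7 gene BnaC01g44850D had 77, 76 and 74 counts in the long libraries 1, 2 and 3 and 144, 211 and 133 in the short libraries. It was lower in every long library and fell, with a log2FC of -1.03 ± 0.25 (SE) and an edgeR adjusted p of 0.0301. The NGAL1 gene BnaC04g09240D had 1, 8 and 0 counts in the long libraries, against 23, 24 and 21 in the short libraries. It fell as well, with a log2FC of -2.85 ± 0.62 (SE) and an edgeR adjusted p of 0.0147. A second NGAL1 gene, BnaA05g08190D, had 13 counts over the long and 52 over the short pool and a log2FC of -1.89 ± 0.50 (SE), which did not pass (edgeR, adjusted p = 0.0571). With 1 library left out, the call of SOD7 ended in 5 of 6 fits, all but that without short replicate 3. Over the 6 fits its log2FC ran from -1.15 to -0.86 and its edgeR adjusted p from 0.0313 to 0.201. That of BnaC04g09240D ended in 4 of them, without long replicate 1 or 3 or short replicate 1 or 3. Over the 6 fits its log2FC ran from -5.05 to -2.36, the lowest without long replicate 2, where the call held. Under TMM scaling both calls ended, with SOD7 at -0.25 and BnaC04g09240D at -2.07, and under DESeq2 size factors they stood at -0.08 and -1.90, also not called.

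Of the other size genes, the TCP15 gene BnaAnng26720D, a transcription factor of cell proliferation, had 246, 246 and 182 counts in the long libraries, against 106, 119 and 110 in the short libraries. Its level was 8.55 ± 0.882 CPM in the long pool and 4.09 ± 0.0563 CPM in the short pool (SD, n = 3), without overlap. It rose, with a log2FC of 1.06 ± 0.21 (SE) and an edgeR adjusted p of 0.00633. This call ended without long replicate 1 (log2 fold change 0.97, edgeR, adjusted p = 0.0613) and in limma on log2(FPKM + 0.1) (1.04, adjusted p = 0.0626). The GRF2 gene BnaC01g01310D, a growth-regulating factor, rose from 0.745 ± 0.277 to 2.03 ± 0.219 CPM (SD, n = 3), with a log2FC of 1.43 ± 0.35 (SE) and an edgeR adjusted p of 0.0350. With 1 library left out, its call ended in 5 of 6 fits, all but that without short replicate 2 (log2FC from 1.19 to 1.73 over the 6 fits). The call of GRF2 also ended in limma on log2(FPKM + 0.1) (1.33, adjusted p = 0.0708) and on log2(FPKM + 1) (0.66, adjusted p = 0.0666).

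The remaining 3 size genes did not pass. ARL (BnaC03g24680D), an ARGOS-like protein that promotes cell expansion in Arabidopsis, had a log2FC of 1.13 ± 0.32 (SE) and an edgeR adjusted p of 0.0971. AN3 (BnaC02g39370D), a partner protein of growth-regulating factors, had 119, 147 and 56 counts in the long libraries, against 28, 35 and 81 in the short libraries. Here the groups overlapped, since long replicate 3 lay below short replicate 3, and the log2 fold change was 1.18 ± 0.38 (SE; edgeR, adjusted p = 0.210). Without short replicate 3 AN3 passed, with a log2FC of 1.79 (edgeR, adjusted p = 0.0157). ARL and AN3 also passed under TMM scaling, with log2FC of 1.91 and 1.95. CKX2 (BnaC07g01710D), which breaks down cytokinin, had 8 counts over the long and 36 over the short pool and a log2FC of -2.06 ± 0.53 (SE) and an edgeR adjusted p of 0.0508. Without long replicate 3 its log2FC was -2.94, which did not pass either (edgeR, adjusted p = 0.0602).

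**Figure D5:**
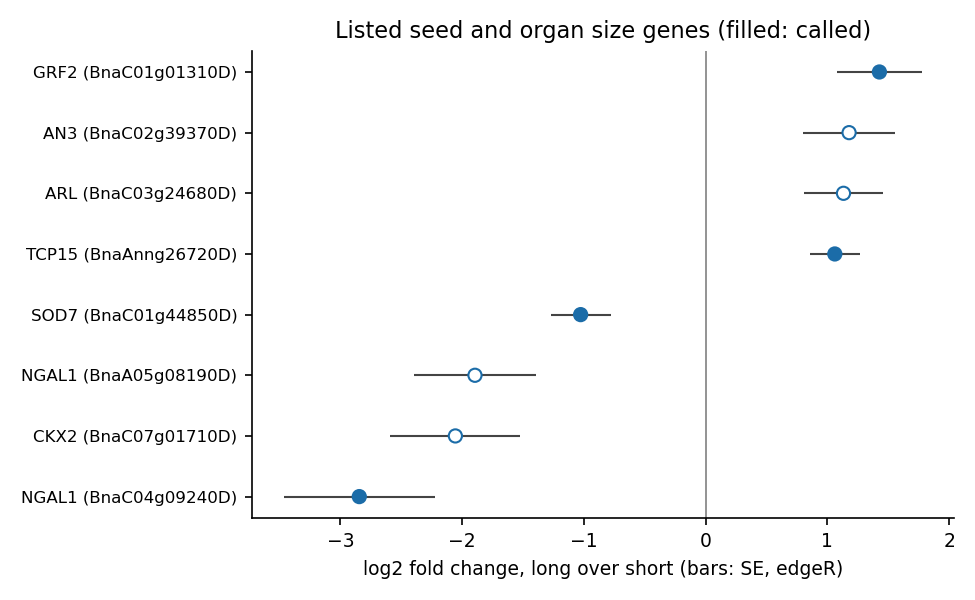
Log2 fold changes, long over short, with standard errors (edgeR) of the 8 listed seed and organ size genes; filled symbols were called. TCP15 and GRF2 were called as higher, SOD7 and 1 NGAL1 gene as lower, and ARL, AN3, CKX2 and the other NGAL1 gene were not called.

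Likeness to the A09_random copy was measured as the root mean square difference of log2(CPM + 0.5) over the 6 libraries, after centring each gene on its mean. The nearest named gene was BnaA07g32570D, described as nucleolin 1, a protein of ribosome production, with a difference of 0.25. It had 25.3 ± 5.62 CPM in the long pool and 0.951 ± 0.242 CPM in the short pool (SD, n = 3) and a log2FC of 4.72 ± 0.26 (SE). Next came BnaC08g07870D (uridine 5'-monophosphate synthase, of pyrimidine synthesis) at 0.56, BnaA02g06930D (a probable LRR receptor-like kinase) at 0.60, BnaC05g43760D (non-specific lipid-transfer protein 6) at 0.66 and BnaC06g11640D (Sin3-like 6) at 0.98. For these 4 the log2 fold changes were 6.07 ± 0.46, 4.76 ± 0.34 and 3.51 ± 0.24 (SE) for the first 3, while BnaC06g11640D had 231 counts over the long libraries against 0 over the short ones. Without short replicate 3 the value of BnaC08g07870D, which had 7 counts over the short pool, was 7.20. The other CYP78A genes, which differed in the opposite direction, were much farther from the A09_random copy, at 2.57 to 2.71. They were at 0.21 to 0.32 from each other. The added 0.5 CPM compresses differences between genes with few reads, so these small distances do not show a shared pattern. None of the 5 genes lies on A09_random. The measure itself places genes with a large rise in the long pool near each other. The list therefore does not show a shared pattern beyond that rise.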

How the data were processed

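Per the series design text, the authors filtered the reads, aligned them to the Darmor genome and quantified those with a unique position. The aligner and annotation release were not given in the sources used here. The submitters' processing notes list both edgeR and DESeq2. The deposited read counts per gene and library are named as counts in the file headers and are whole numbers. In the deposited FPKM, the authors divided these by gene length and library size. The authors' own comparison fills the log2 fold change, p-value and FDR columns. The table holds 3248 genes with values; 59362 blank rows were left out.

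Because the table holds called genes only, library totals were recovered from counts, FPKM and genomic span, using genes that reach 200 counts and an FPKM of 5, as the median of genes within 0.5% of the 95th percentile. The test was the robust quasi-likelihood test of edgeR 4.0.16 (R 4.3.3) after filterByExpr, on recovered totals without TMM, with limma 3.58.1 and DESeq2 1.42.0 as alternatives. A gene was called at a p up to 0.005 and an adjusted p (Benjamini-Hochberg) up to 0.05 over 65264 genes, the number implied by the FDR column set against the p-values. The standard error is the log2 fold change divided by the root of F. Libraries of a pool differed by 4.32 to 7.18 times the counting noise (chi-square per gene), so none was treated as a duplicate. The edgeR fit was also run on simulated counts in which most genes did not change. The listed genes were all chosen as changed, so that run does not measure the error of the calls here. Exact permutation tests and figures used Python 3.11.15, scipy 1.17.1 and matplotlib 3.10.9.

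Named genes are the 4 CYP78A genes, the listed genes of the family and size lists, the nearest listed neighbours and the named genes of nearest likeness (5 for the A09_random copy, 3 for each other gene). The members and lists were chosen with earlier results of these data known. The RefSeq gene table used here matched 0 of the gene identifiers, so no sequence is shown.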

Additional observations from a re-analysis of the deposited data

How the results depend on the processing

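The A09_random copy kept its direction and call in all 9 other settings and all 6 fits that left out 1 library (log2 fold changes 4.12 to 5.44, and 4.33 to 4.62). No direction was reversed in any setting run for the 4 genes, the size genes, the tested nearest neighbours or the 5 genes most like the A09_random copy. Values of the remaining named genes under these settings are not given here. The call of BnaA10g00660D ended with TMM (log2 fold change -1.11) or DESeq2 size factors (-0.94) over the listed genes, with their column sums (-1.54), with the DESeq2 Wald test (-1.90), with limma on log2(FPKM + 1) (-0.46) and with the replicate block (-1.92, adjusted p = 0.0898); without 1 library it ranged from -2.23 to -1.59. The A04 copy (-1.68) and the C08 copy (-1.80) passed when adjusted over the genes fitted alone, where 2180 of 2574 passed. Without 1 library they ranged from -2.11 to -1.33 and from -2.05 to -1.55; with DESeq2 size factors the C08 copy was removed by the filter and the A04 copy was at -0.73. Differences between the A09_random copy and the other 3 genes were 5.71 to 5.94 with FPKM + 0.1, and the log2 ratio of the summed level was 3.96, or 3.91 on CPM.

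The fit described above called 594 genes as higher and 1119 as lower. The split became 916 against 330 under TMM, 986 against 260 under DESeq2 size factors and 815 against 687 under column sums. These scalings moved the median log2 fold change by 0.78, 0.94 and 0.34, and they centre on genes that were all selected as different. Limma on log2(FPKM + 0.1) called 1035 genes, and leaving out 1 library called 1109 to 1434. The block called 1228 and also ended the calls of SOD7 (adjusted p = 0.106), NGAL1 BnaC04g09240D (0.0924) and GRF2 BnaC01g01310D (0.113). Same-numbered libraries did not deviate together (correlations 0.0534, 0.0133 and 0.0076), and not every library correlated best with its own number. Depth limits the 3 genes with few reads.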

Other observations

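The genes nearest in pattern to the CYP78A genes with few reads were all lower in the long pool, which the measure of likeness itself brings about. For the A04 copy they were BnaCnng41990D (a probable LRR receptor-like kinase, root mean square difference 0.0675 on the log2 scale over 6 libraries), BnaC06g30050D (JAGGED, a zinc finger protein that promotes growth of lateral organs, 0.0989) and BnaC05g48110D (arabinosyltransferase ARAD1, 0.101). JAGGED stood at 0.509 ± 0.262 CPM in the long and 1.37 ± 0.195 CPM in the short pool (SD, n = 3) and was not called (edgeR, adjusted p = 0.116). For the C08 copy they were BnaA04g05470D (syntaxin-122, 0.0787), BnaC05g28300D (UDP-glycosyltransferase 91C1, 0.0819) and BnaC09g01720D (described as the chaperone BCS1, 0.0860). For BnaA10g00660D they were BnaC06g16950D (an F-box protein, 0.0293), BnaCnng65550D (sucrose-phosphate synthase 4, 0.0468) and BnaA03g16250D (O-acyltransferase WSD1, 0.0658). The added 0.5 CPM compresses differences of genes at this level, so small distances come easily there.

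Of the 30 listed genes in the authors' class of cytochrome P450 genes, the authors' deposited table gives 6 a positive and 24 a negative log2 fold change. Over all listed genes these shares were 34.4% and 65.6%. Of the 22 tested, 4 were called as higher and 9 as lower, against 23.1% and 43.5% of all tested genes, and the highest fold change after that of the A09_random copy was 1.71 on the log2 scale (BnaA08g31590D).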
